A study of Mus musculus with 12 samples.

Results

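The comparison described here is the addition of high-intensity interval training (HIIT) to semaglutide in db/db mouse muscle. It sets 3 libraries from mice that received both interventions (the combination group) against 3 from mice that received semaglutide alone, 6 of the 12 muscle libraries of the study, chosen by their labels. All mice were C57BL/KsJ db/db males, obese and diabetic because their leptin receptor does not signal. They were 8 weeks old when assigned to the groups. Semaglutide, which activates the GLP-1 receptor over days, was injected under the skin each day for 8 weeks, at 30 nmol/kg in the protocol and 0.05 mg/kg in the sample titles, a difference not resolved here. Training filled the same 8 weeks, on 5 days per week, with 10 treadmill bouts of 4 min at 85 to 90% of top speed, separated by 2 min at 50 to 60%. The titles give 60 min of exercise. Both groups were injected, so by their labels they differ in the training alone. The other 6 libraries come from mice of the same strain, sex and age without the drug, 3 under normal rearing (control) and 3 with HIIT only, and they served to estimate the spread and to show the effect of training without semaglutide.

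Contracting muscle raises its use of glucose, fatty acids and amino acids, and repeated exercise is known to remodel its mitochondria and its contractile and calcium-handling proteins. The ubiquitin ligases Fbxo32 and Trim63, driven by FoxO factors and glucocorticoids, mark muscle that loses protein. GLP-1 receptor agonists lower food intake and body mass, and lean mass is part of the mass lost. The comparison asks what training changes in the muscle of mice already on the drug.

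Levels are FPKM (fragments per kilobase, corrected for depth) as the authors deposited them. A log2 difference is the mean log2(FPKM + 1) of the combination group minus that of the semaglutide group, with its limma standard error (SE) and 3 libraries per group. The 6 libraries held an estimated 17.8 to 21.2 M fragments, and 10666 features reached an FPKM of 1 in at least 3 of the 12 libraries. The myosin Myh4 of fast fibres gave 88.5 to 94.8% of all adult myosin heavy chain FPKM in these 6 libraries and the slow myosin Myh7 gave 0.0559 to 0.993%. The labels call the tissue muscle, and the protocol names soleus among the organs taken. Of the hepatocyte genes, Alb, which encodes serum albumin, was at 0.773 to 3.57 FPKM in the 6 libraries, against 108 to 714 FPKM in the controls.

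The 3 combination libraries were not alike, and this bears on every result below. Replicates 2 and 3 correlated across features at r = 0.991, while replicate 1 correlated with them at 0.979 and 0.977. With the 3 semaglutide libraries replicate 1 correlated at 0.982, 0.983 and 0.987. Replicate 2 did so at a similar 0.982, 0.985 and 0.985, and replicate 3 at 0.979, 0.982 and 0.984. Replicates 2 and 3 lay together below all of the 10 other libraries in 1985 of the 10666 features (18.6%) and above them in 270. The trimmed-mean (TMM) scaling factors were 0.912 and 0.906 in replicates 2 and 3, 1.03 in replicate 1 and 0.971 to 1.04 under semaglutide. Replicate 3 of HIIT only was also at 0.912. Replicate 1 differed from the other combination and semaglutide libraries in another way. Summed over the 13 listed macrophage markers its level was 121 FPKM, against 31.1 and 29.5 in replicates 2 and 3. Under semaglutide the sum was 25.4 to 40.4 FPKM, in controls 41.9 to 137 and with HIIT only 38.7 to 209. Adipoq, made by fat cells, was at 52.8, 15.7 and 10.7 FPKM in combination replicates 1, 2 and 3. It was at 39.9 to 77.6 FPKM with HIIT only, so replicate 1 was not outside the levels of the whole study. Results are therefore given with all libraries and, where it matters, without combination replicate 1.

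With all libraries, adding HIIT changed 1 feature of 10666 (0.00938%) past an adjusted p of 0.05 by limma with Benjamini-Hochberg adjustment. That feature, MSTRG.18204.16, was assembled by StringTie and carries no gene name. It was at 3.45, 3.76 and 3.94 FPKM under semaglutide and at 1.37, 1.04 and 0.777 FPKM in the combination group. It fell by 1.20 ± 0.14 on the log2 scale (SE, n = 3 per group, limma adjusted p = 0.0267). In the controls MSTRG.18204.16 was at 1.1 to 1.86 FPKM, so the semaglutide libraries were the high ones and the combination libraries lay near or below the control level. Its adjusted p ranged from 0.00184 to 0.281 over the alternatives that could test it, and leaving out any of 9 single libraries ended the call. No gene with a symbol passed. At an unadjusted p under 0.05, 190 features (1.78%) stood higher in the combination group and 1102 (10.3%) lower, where 533 would be reached by chance in both directions together. The median over all features was -0.07, and 34.6% of features were above 0. After TMM rescaling the median was 0.01, 52.2% were above 0 and the split was 462 higher (4.33%) to 692 lower (6.49%), so the excess of lower features depends in part on the scaling.

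Without combination replicate 1, 557 features passed (5.22%), 41 higher (0.384%) and 516 lower (4.84%). Such a call rests on 2 combination libraries. Combination replicate 1 itself lay within the semaglutide range for 231 of the 516 lower features, below that range for 201 and above it for 84. For the 41 higher features it lay above the range for 18, within it for 11 and below it for 12. TMM rescaling without the same library gave 411 calls, of which 330 were shared, 59.2% of the 557 and 80.3% of the 411.

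Among genes with a symbol, the 4 described first were higher in the combination group in every library. Dusp29, which encodes a dual-specificity phosphatase of skeletal muscle, was at 2.74, 2.8 and 3.38 FPKM under semaglutide and at 5.93, 5.89 and 9.1 FPKM in the combination group. Every combination library exceeded every semaglutide library, and the controls, at 4.58 to 5.82 FPKM, lay between them. The log2 difference of Dusp29 was 0.98 ± 0.16 (limma adjusted p = 0.28), and without combination replicate 1 it was 1.07 (adjusted p = 0.0102). Mettl21e, a muscle member of a methyltransferase family, was at 4.81, 4.1 and 4.19 FPKM with the drug alone and 8.18, 8.06 and 10.9 FPKM with both, a difference of 0.89 ± 0.19. It was also at 7.77 to 10.8 FPKM in mice trained without the drug, against 3.73 to 7.06 in controls. Smox, which encodes spermine oxidase, was at 33, 23.6 and 36.9 FPKM with the drug alone and 60.6, 49.8 and 53 FPKM with both, at 0.80 ± 0.20. Fhl3, a LIM domain protein of muscle, was at 37, 35.8 and 26.7 against 58.5, 47.3 and 57.4 FPKM, at 0.71 ± 0.16. None of these genes overlapped between the groups, and none passed the adjustment, each with a limma adjusted p of 0.28. Across all features, 3.91% had 3 combination libraries above the 3 semaglutide libraries and 12.4% had them below. The remaining genes chosen for the smallest p in this direction were the acyl-CoA thioesterase Acot7 (0.42), the valine-degrading enzyme Hibadh (0.33), Mpnd (0.46) and the endocytic protein Ehd4 (0.39).

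In the lower direction the smallest p belonged to Ppfibp2, which encodes a liprin, a scaffold protein. It was at 6.8, 6.6 and 6.68 FPKM under semaglutide and at 3.88, 2.51 and 2.47 FPKM in the combination group, a log2 difference of -0.98 ± 0.17 (limma adjusted p = 0.28). Trained mice without the drug had Ppfibp2 at 2.85 to 4.06 FPKM, near the combination group, and controls had it at 4.45 to 6.85. The lectin gene Clec2d was at 29.2, 25.4 and 23.7 FPKM with the drug alone and 14.5, 17.2 and 16.5 FPKM with both, at -0.66 ± 0.12. Without the drug the order was the other way, with Clec2d at 19 to 24.3 FPKM in trained mice and 14.7 to 18.3 in controls, and the difference between both effects was -0.98 ± 0.17. That difference did not pass over all features. The others were Myo10 (-0.51), a myosin of cell protrusions, Arv1 (-0.65), a protein of lipid homeostasis, Atp1b4 (-0.54), a muscle relative of the sodium pump beta subunits, the splicing factor Srsf3 (-0.75), the zinc finger gene Zfp866 (-0.57) and the cyclic AMP phosphodiesterase Pde4c (-0.91). All 8 lower and 5 of the 8 higher genes of this choice had a limma adjusted p under 0.05 without combination replicate 1. Of all features 4.84% passed lower and 0.384% higher in that fit. These genes were chosen by their p in the same libraries, so the count adds no evidence for them.

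**Figure D1:**
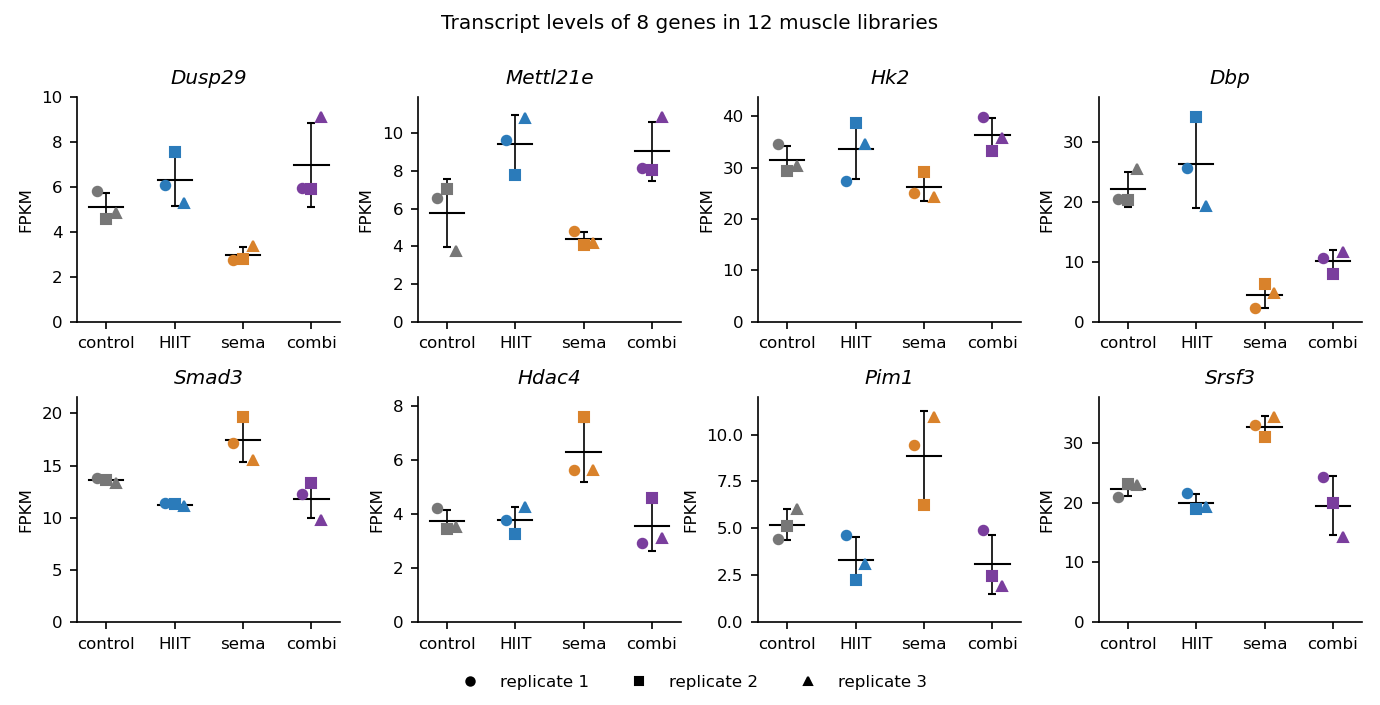
FPKM of 8 genes in the 12 libraries by group (sema, semaglutide; combi, combination); points are libraries, with shapes for replicate numbers, bars the mean and error bars the SD of 3 libraries. Dusp29 and Mettl21e sit at 2.74 to 4.81 FPKM under semaglutide and at 5.89 to 10.9 FPKM in the combination group, while Smad3, Hdac4, Pim1 and Srsf3 are highest under semaglutide. Hdac4 and Pim1 were chosen after their values were seen.

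Several genes of RNA processing were among the many features in which combination replicates 2 and 3 lay low together. The 10 features more than 1 log2 unit below the 10 other libraries in both were Clk1, Ccnl2, Pnisr, Srrm2, Leng8, Fnbp4, the galectin gene Lgals4, Gm42417, Gm49396 and the assembled feature MSTRG.18987.1. SR proteins such as Srsf1, Srsf5 and Srsf6 bind exons and recruit the spliceosome, and the CLK kinases phosphorylate them. These genes were chosen after their values were seen. Clk1 was at 29.5, 10.6 and 14 FPKM in combination replicates 1, 2 and 3 and at 50.6, 33.7 and 35.9 FPKM under semaglutide. The cyclin gene Ccnl2, a regulator of splicing, was at 26.1, 7.17 and 8.11 FPKM in the combination group and at 31.3, 25.3 and 22.6 FPKM under semaglutide. Srsf5 was at 127, 40.6 and 37.5 FPKM against 107, 105 and 102 FPKM. Combination replicate 1 therefore lay close to the semaglutide level of Ccnl2, below it for Clk1 and above it for Srsf5, while replicates 2 and 3 lay below every other library of the study for all 3 genes. Leng8 was at 31.7, 5.34 and 5.55 FPKM in the combination group and at 20.7 to 31.5 FPKM under semaglutide. The RNA helicase Ddx5 was at 175, 81.3 and 72.8 FPKM against 177 to 204 FPKM.

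Over the whole list of SR factors and their kinases, a list added after the data were seen, 17 of 18 genes were tested and 1, Srsf4, was above 0, at 0.03. The median log2 difference was -0.45, against -0.07 over all features. With all libraries 0 members passed by limma, and 8 had an unadjusted p under 0.05 in the lower direction (10.3% of all features did). Without combination replicate 1 the median was -0.81 and 9 members fell past the threshold (4.84% of all features did), among them Srsf1 by 1.10, Srsf6 by 1.22 and Clk1 by 1.62 on the log2 scale. Combination replicates 2 and 3 lay below the 10 other libraries for 12 of the 17 members, against 18.6% of all features. Summed over the list the FPKM was 467, 248 and 222 in combination replicates 1, 2 and 3, 423 to 483 under semaglutide and 340 to 450 in trained mice without the drug. The median difference of HIIT from control was -0.07. The estimated depth was 18.4, 21.2 and 18.1 M fragments in combination replicates 1, 2 and 3. Among these 3 libraries the macrophage markers were highest in replicate 1, as given above, and their part in this result was not tested.

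**Figure D2:**
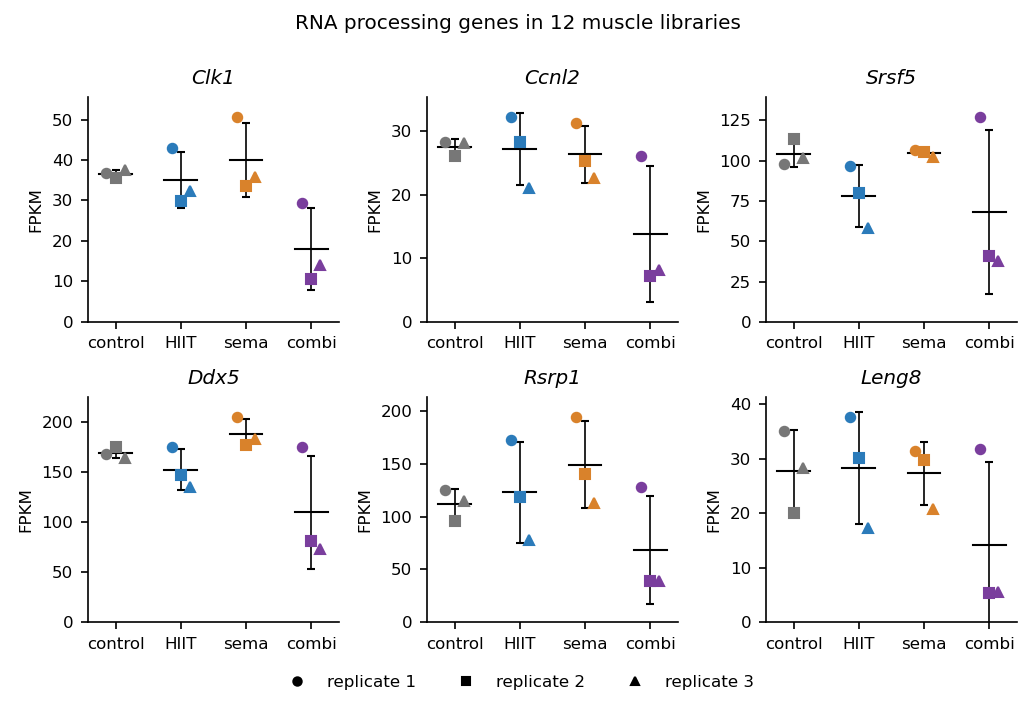
FPKM of 6 RNA processing genes in the 12 libraries by group (sema, semaglutide; combi, combination); points are libraries with shapes for replicate numbers, bars are means and error bars the SD of 3 libraries. Combination replicates 2 (square) and 3 (triangle) lie low together, at 5.34 and 5.55 FPKM for Leng8 and 40.6 and 37.5 FPKM for Srsf5, while replicate 1 (circle) lies nearer the other groups.

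Cytosolic ribosomal protein genes stood lower as a group when HIIT was added to semaglutide, and so did their summed level in each combination library. All 56 genes of the list were tested and 0 of the 56 were above 0 (34.6% of all features were). The median log2 difference was -0.34 and the range -0.61 to -0.16. Of the 56, 0 passed the adjustment by limma (0.00938% of all features did) and 41 had an unadjusted p under 0.05 in the lower direction (10.3%). The 3 combination libraries lay below the 3 semaglutide libraries for 34 of the 56 genes (12.4% of all features). Summed over the list the FPKM was 11053, 10391 and 11902 with the drug alone and 10165, 8370 and 7826 with both. The groups did not overlap, but combination replicate 1 was close to the lowest semaglutide library, and it fell within the controls' range of 9911 to 10993 FPKM. Combination replicates 2 and 3 lay below the 10 other libraries for 45 of the 56 genes (18.6% of all features did), so the level moved with the libraries that stand apart. The exact permutation test of these sums gave a two-sided p of 0.1, the smallest that 3 against 3 can give.

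Rps13, a protein of the small subunit, was at 188, 161 and 201 FPKM under semaglutide and at 141, 124 and 122 FPKM in the combination group. All 3 combination libraries were lower, and the log2 difference was -0.50 ± 0.11 (limma adjusted p = 0.28). Rpl27, of the large subunit, was at 143, 142 and 152 FPKM against 126, 107 and 106 FPKM, at -0.36 ± 0.09. After TMM rescaling 0 of the 56 genes were above 0, the median was -0.24 and 26 had an unadjusted p under 0.05 in the lower direction (6.49% of all features did). Without combination replicate 1 the median was -0.44 and 20 of the 56 genes fell past the threshold (4.84% of all features did), Rps13 by 0.57 and Rpl27 by 0.44 among them. In mice without the drug the list's median for HIIT against control was 0.08 and 47 of the 56 genes were above 0 (44.1% of all features were). Of the 56, 1 had an unadjusted p under 0.05 by limma in the higher direction there (3.29% of all features did). The summed FPKM was 12230, 9752 and 11385 with HIIT only and 9911, 10993 and 10584 in controls, which overlap. The difference between the effect of HIIT with and without semaglutide had a median of -0.43 over the list, and 31 genes had an unadjusted p under 0.05 in the lower direction (5.06% of all features did). None passed in that test, in which 0 of 10666 features passed and 822 (7.71%) had an unadjusted p under 0.05 by limma. Ribosomal protein genes have many processed pseudogenes, so reads may be divided among copies and single values are uncertain.

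Ribosomal protein transcripts are known for a 5' terminal oligopyrimidine (TOP) tract, a run of C and T that opens with C at the start of the transcript and through which mTOR signalling controls their translation. The sequences shown let a run of at least 8 pyrimidines be seen beside the values. Each run opens with C within 25 bases of the annotated start, before or after it. The choice was limited to genes with a single RefSeq start kept and a run wholly inside the printed window. Of these, the 5 with the smallest p are shown. In Rpl13 the run ends before the annotated start, and in Rpl13a it opens 2 bases after it. Neither is a TOP tract by that annotation. Each line runs from 20 bases before the RefSeq start to the 30th base of the transcript, with the run in capitals, on GRCm38.p6. The positions are chr9:120571497-120571546 on the plus strand for Rpl14, chr7:45128716-45128765 on the minus strand for Rpl13a, chr8:123102330-123102379 on the plus strand for Rpl13, chr7:4792945-4792994 on the plus strand for Rpl28 and chr2:39005102-39005151 on the minus strand for Rpl35.
Rpl14: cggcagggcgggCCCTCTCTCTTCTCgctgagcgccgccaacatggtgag
Rpl13a: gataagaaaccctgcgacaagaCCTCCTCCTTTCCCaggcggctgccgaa
Rpl13: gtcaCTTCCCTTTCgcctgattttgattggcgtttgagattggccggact
Rpl28: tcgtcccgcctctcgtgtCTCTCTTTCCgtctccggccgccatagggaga
Rpl35: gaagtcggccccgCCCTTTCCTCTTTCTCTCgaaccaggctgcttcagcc

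Of the 56 genes, 42 were matched in the RefSeq table, and 25 of them (59.5%) held such a run on the coding strand, against 18.7% of 27025 genes. With at least 5 bases within 10 of the start the shares were 54.8% and 32.6%. The match is a description of the window and not of its use. Rpl14 was at 151, 146 and 170 FPKM under semaglutide and at 137, 98.7 and 99.7 FPKM in the combination group, at -0.49 ± 0.13. Among 15 translation factors whose transcripts are known to carry the tract, a list added after the data were seen, 3 were above 0 (34.6% of all features were) at a median of -0.12, and 7 were after TMM rescaling, at -0.02. Of the 15, 3 had an unadjusted p under 0.05 in the lower direction (10.3% of all features did).

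**Figure D3:**
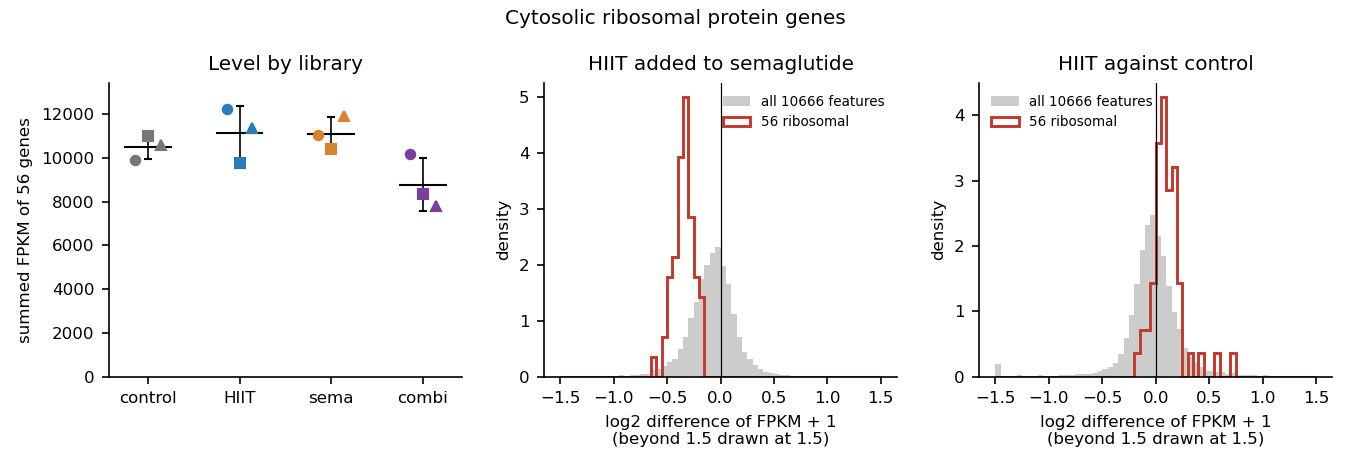
Left, summed FPKM of 56 cytosolic ribosomal protein genes in each library (circle, square and triangle for replicates 1, 2 and 3; bars are means, error bars the SD of 3 libraries; sema, semaglutide; combi, combination). Middle and right, densities of log2 differences for these genes and for all 10666 features, for HIIT added to semaglutide and for HIIT against control. The ribosomal genes lie at -0.61 to -0.16 with semaglutide, while 47 of the 56 lie above 0 without it, 1 of them at an unadjusted p under 0.05 by limma.

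Genes of the TCA cycle stood slightly higher in the combination group. The TCA cycle list, with pyruvate dehydrogenase, had 20 of 20 genes above 0 (34.6% of all features were) at a median of 0.11, or 0.21 after TMM rescaling. Of the 20, 0 passed by limma and 4 had an unadjusted p under 0.05 in the higher direction (1.78% of all features did). Summed over the list the FPKM was 3703, 3816 and 3624 with the drug alone and 3754, 3879 and 4401 with both. These sums overlapped (exact permutation p = 0.2, two-sided). Dlat, the acetyltransferase subunit of pyruvate dehydrogenase, was at 36.2, 38.8 and 37 FPKM under semaglutide and at 40, 51.2 and 59.1 FPKM in the combination group. The combination libraries were all higher and also more spread, and the log2 difference was 0.40 ± 0.14 (limma adjusted p = 0.327). Without combination replicate 1 Dlat rose by 0.55 (adjusted p = 0.0407), the only member to pass there. Dlst, a subunit of the 2-oxoglutarate dehydrogenase complex, was at 0.27 ± 0.11, and citrate synthase (Cs) was at 0.20 ± 0.11.

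Genes that break down branched-chain amino acids were higher by about the same amount. Of 22 listed genes 21 were tested and 16 were above 0, the median was 0.11, and 6 had an unadjusted p under 0.05 in the higher direction (1.78% of all features did), with 0 called by limma. Hibadh, which acts late in valine breakdown, was at 58.5, 53.5 and 57.4 FPKM under semaglutide and at 71.9, 68.2 and 74.1 FPKM in the combination group. Bcat2, the mitochondrial aminotransferase of the first step, was at 17.5, 17.7 and 18.7 FPKM against 29, 20.2 and 26 FPKM. Neither gene overlapped between the groups, at 0.33 ± 0.07 for Hibadh and 0.44 ± 0.12 for Bcat2 (limma adjusted p = 0.28 for both). Summed over the list the FPKM was 496, 495 and 500 with the drug alone and 565, 521 and 586 with both (exact permutation p = 0.1, two-sided, the smallest possible). In mice without the drug the list's median for HIIT against control was 0.03.

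Subunits of the respiratory chain had no direction that held across scalings. Nuclear genes of complex I had 14 of 37 members above 0 at a median of -0.04, and those of complexes II to V had 16 of 39 at -0.05, with 0 called by limma and 3 of the 76 at an unadjusted p under 0.05 in the lower direction, a smaller share than the 10.3% of all features. After TMM rescaling the medians were 0.06 for both lists. In mice without the drug 34 of 37 and 36 of 39 members were above 0 for HIIT against control, at medians of 0.16 and 0.21. The difference between both effects had medians of -0.18 and -0.27, and 9 members of each list had an unadjusted p under 0.05 in the lower direction (5.06% of all features did). Atp5mc2, a subunit of the ATP synthase rotor, was at 179, 178 and 187 FPKM under semaglutide and 160, 155 and 152 FPKM in the combination group, at -0.22 ± 0.08. Ppargc1a, a coactivator that drives mitochondrial biogenesis, was at 5.68, 5.78 and 5.35 FPKM under semaglutide and at 6.57, 5.37 and 6.35 FPKM in the combination group, and these values overlapped. The nuclear receptor gene Esrra, a partner of that coactivator, was at 25.4, 25.4 and 22.6 FPKM against 29.8, 29.9 and 37.4 FPKM, at 0.38 ± 0.12 (limma adjusted p = 0.304).

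For glucose handling, the member with the smallest p was Hk2, the hexokinase that traps glucose in working muscle. It was at 25.1, 29.1 and 24.2 FPKM under semaglutide and at 39.8, 33.2 and 35.8 FPKM in the combination group, with controls at 29.4 to 34.6 FPKM. The groups did not overlap, and the log2 difference was 0.46 ± 0.13 (limma adjusted p = 0.291). The glucose transporter gene Slc2a4 was at 187, 197 and 184 FPKM against 239, 198 and 194 FPKM, at 0.15 ± 0.13. Txnip, an inhibitor of glucose uptake, was at 413, 357 and 396 FPKM under semaglutide and at 346, 269 and 200 FPKM in the combination group, at -0.55 ± 0.18 (adjusted p = 0.314), and fell by 0.74 without combination replicate 1 (adjusted p = 0.0269). Of 28 insulin signalling and glucose uptake genes, 3 had an unadjusted p under 0.05 in the higher direction (1.78% of all features) and 1 in the lower (10.3%). Of 25 glycolysis and glycogen genes, 2 did so in the higher direction and the median was 0.05. The fatty acid oxidation list was at 0.02, with 15 of 25 members above 0. Pdk4, the kinase that turns off pyruvate dehydrogenase, was at 786, 477 and 623 FPKM against 491, 286 and 299 FPKM, and Ucp3, a mitochondrial carrier induced by fatty acids, was at 128, 101 and 127 against 120, 44.9 and 51.8 FPKM. Both overlapped between the groups, at -0.82 ± 0.63 and -0.84 ± 0.48.

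No gene of the fast or slow fibre lists passed. Myh4 was at 7514, 6477 and 6864 FPKM under semaglutide and 7427, 8898 and 7165 FPKM in the combination group (0.17 ± 0.18). Myh7 was at 19.5, 9.54 and 73.1 against 12.3, 5.27 and 57.2 FPKM (-0.57 ± 0.86), with 1 high library in each group. Mybph, a myosin-binding protein of fast fibres, was at 68.8, 62.4 and 86.8 FPKM under semaglutide and 134, 136 and 168 FPKM in the combination group. Those values did not overlap, and the difference of Mybph was 1.00 ± 0.30 (limma adjusted p = 0.297). The slow fibre list had 2 of 16 members above 0 at a median of -0.28, and 0 of the 16 had an unadjusted p under 0.05. Genes of excitation and calcium release had 14 of 20 above 0 at 0.11, with 2 at an unadjusted p under 0.05 in the higher direction (1.78% of all features), Cacnb1 (0.23), a subunit of the muscle calcium channel, and Jph2 (0.38), which ties the surface membrane to the calcium store.

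Atrophy and FoxO targets and genes of the glucocorticoid response had medians below 0 and no call. Of 23 atrophy and FoxO target genes 3 were above 0, the median was -0.17 (-0.07 after TMM rescaling, with 6 above 0) and 1 had an unadjusted p under 0.05 in the lower direction (10.3% of all features did). Fbxo32 was at 182, 123 and 105 FPKM under semaglutide and at 113, 90.8 and 109 FPKM in the combination group, and Trim63 at 562, 399 and 337 against 429, 297 and 287 FPKM. Both overlapped, at -0.35 ± 0.20 and -0.35 ± 0.22, and both stayed above the control range of 46.1 to 59.9 FPKM for Fbxo32 and 155 to 254 FPKM for Trim63. The muscle gene Klhl38 was at 70.9, 49.1 and 53.9 against 39.5, 38.8 and 34.7 FPKM, at -0.59 ± 0.22 (limma adjusted p = 0.345), the member of that list with the smallest p. Of 31 proteasome genes 3 were above 0 (34.6% of all features were) at a median of -0.08. Of the 31, 6 had an unadjusted p under 0.05 by limma in the lower direction (10.3% of all features did). After TMM rescaling 17 were above 0 (52.2% of all features) at 0.02, and 0 had such a p (6.49%). Summed over the list the FPKM was 2631, 2491 and 2666 with the drug alone and 2476, 2470 and 2300 with both. The exact permutation test of these sums gave a two-sided p of 0.1, the smallest possible.

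Of 21 glucocorticoid response genes 5 were above 0, the median was -0.33 (-0.23 after TMM rescaling), and 3 had an unadjusted p under 0.05 in the lower direction (10.3% of all features did). The kinase gene Sgk1 was at 173, 179 and 171 FPKM under semaglutide and 135, 157 and 105 FPKM in the combination group, at -0.41 ± 0.14, with controls at 73.3 to 94.5 FPKM. Fkbp5, a chaperone of the receptor complex, was at 100, 109 and 82.4 against 96.7, 97.6 and 92.5 FPKM, at -0.02 ± 0.20. The list's members thus ranged from overlapping levels to separated ones. Without combination replicate 1, 2 members fell past the threshold (4.84% of all features did), Per1 by 0.89 and Map3k6 by 0.94 on the log2 scale, both named after their values were seen. They were high in combination replicate 1, Per1 at 37.5 FPKM against 15.1 and 12.3, and Map3k6 at 5.23 FPKM against 1.81 and 1.74.

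Of growth regulators, Smad3, the transcription factor through which myostatin and TGF-beta act, was at 17.2, 19.6 and 15.5 FPKM under semaglutide and at 12.3, 13.3 and 9.76 FPKM in the combination group. The groups did not overlap, and controls were at 13.4 to 13.9 FPKM. Its log2 difference was -0.53 ± 0.11 (limma adjusted p = 0.28), and Smad3 fell by 0.57 without combination replicate 1 (adjusted p = 0.0323). Myostatin itself (Mstn) was at 45.7, 42.9 and 43.4 against 39.1, 59.3 and 37.8 FPKM, at 0.01 ± 0.24. The myogenic factors Myod1 and Myog, which are also induced in denervated or regenerating muscle, were at -0.54 ± 0.16 and -0.66 ± 0.23. The regeneration list they belong to had 10 of 16 tested members above 0 at a median of 0.16 (0.25 after TMM rescaling), and 3 had an unadjusted p under 0.05 in the lower direction (10.3% of all features). Myod1 was at 6.51, 7.21 and 5.72 FPKM under semaglutide and 3.16, 4.28 and 5.14 FPKM in the combination group.

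Among clock genes, the output regulator Dbp was at 2.24, 6.35 and 4.73 FPKM under semaglutide and 10.7, 7.89 and 11.6 FPKM in the combination group, with controls at 20.2 to 25.5 and trained mice without the drug at 19.3 to 34.1 FPKM. The difference was 1.09 ± 0.28 (limma adjusted p = 0.28). The hour at which tissue was taken is not stated in the labels. The median over 18 clock genes was -0.03 with 8 above 0, and 0.07 after TMM rescaling. Of 21 immediate early genes, 4 were above 0 at a median of -0.26, and 3 had an unadjusted p under 0.05 in the lower direction (10.3% of all features) and 1 in the higher (1.78%). Klf6, one of the former, was at 14.8, 11.4 and 12 FPKM under semaglutide and 11.5, 7.97 and 7.15 FPKM in the combination group, which overlap.

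Macrophage and white adipocyte markers moved with combination replicate 1. The 11 macrophage markers were all above 0 at a median of 0.37 with all libraries and at -0.08 without combination replicate 1. The 12 white adipocyte markers were at 0.48, with 11 above 0, and at -0.11 without it. Over all features the median was -0.07 with all libraries and -0.11 without combination replicate 1. Summed over the adipocyte list the FPKM was 1091 to 1314 with the drug alone and 1069 to 1433 with both, with Car3, which muscle also makes, at 679 to 1122 FPKM in the 6 libraries, and Adipoq was at 9.6, 8.54 and 30.5 FPKM with the drug alone. For both lists 0 members had an unadjusted p under 0.05. Macrophage Cd68 was at 0.839, 1.73 and 2.29 FPKM under semaglutide and at 9.5, 1.83 and 1.63 FPKM in the combination group. Of these 6 libraries only combination replicate 1 was high. In bulk tissue fewer cells of a type and less RNA per cell cannot be told apart. Summed over 15 hepatocyte markers the FPKM was 28.3, 43.6 and 192 with the drug alone and 210, 88.7 and 59.4 with both, and haptoglobin (Hp), which fat also makes, gave 163 of the 192 and 170 of the 210. The pericyte and smooth muscle list had 2 of 10 members at an unadjusted p under 0.05 in the lower direction (10.3% of all features), at a median of -0.05, which was 0.03 after TMM rescaling and -0.21 without combination replicate 1. Its member Rgs5 was at 53.7, 56 and 55 FPKM with the drug alone and at 48.1, 42.6 and 41.2 FPKM with both, which do not overlap (-0.32 ± 0.10). The 4 satellite cell markers tested, of 8 listed, were at a median of -0.38. Des, the most abundant, was the 1 of them above 0 (0.07 ± 0.10). Chodl was the 1 of them with an unadjusted p under 0.05 by limma (10.3% of all features had one in the lower direction). It was at 4.31, 4.73 and 3.4 against 2.35, 3.12 and 1.91 FPKM (-0.58 ± 0.17). Endothelial markers were at a median of -0.07 (0.02 after TMM rescaling) and fibroblast markers at 0.11, with 0 of 13 members of each at an unadjusted p under 0.05.

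**Figure D4:**
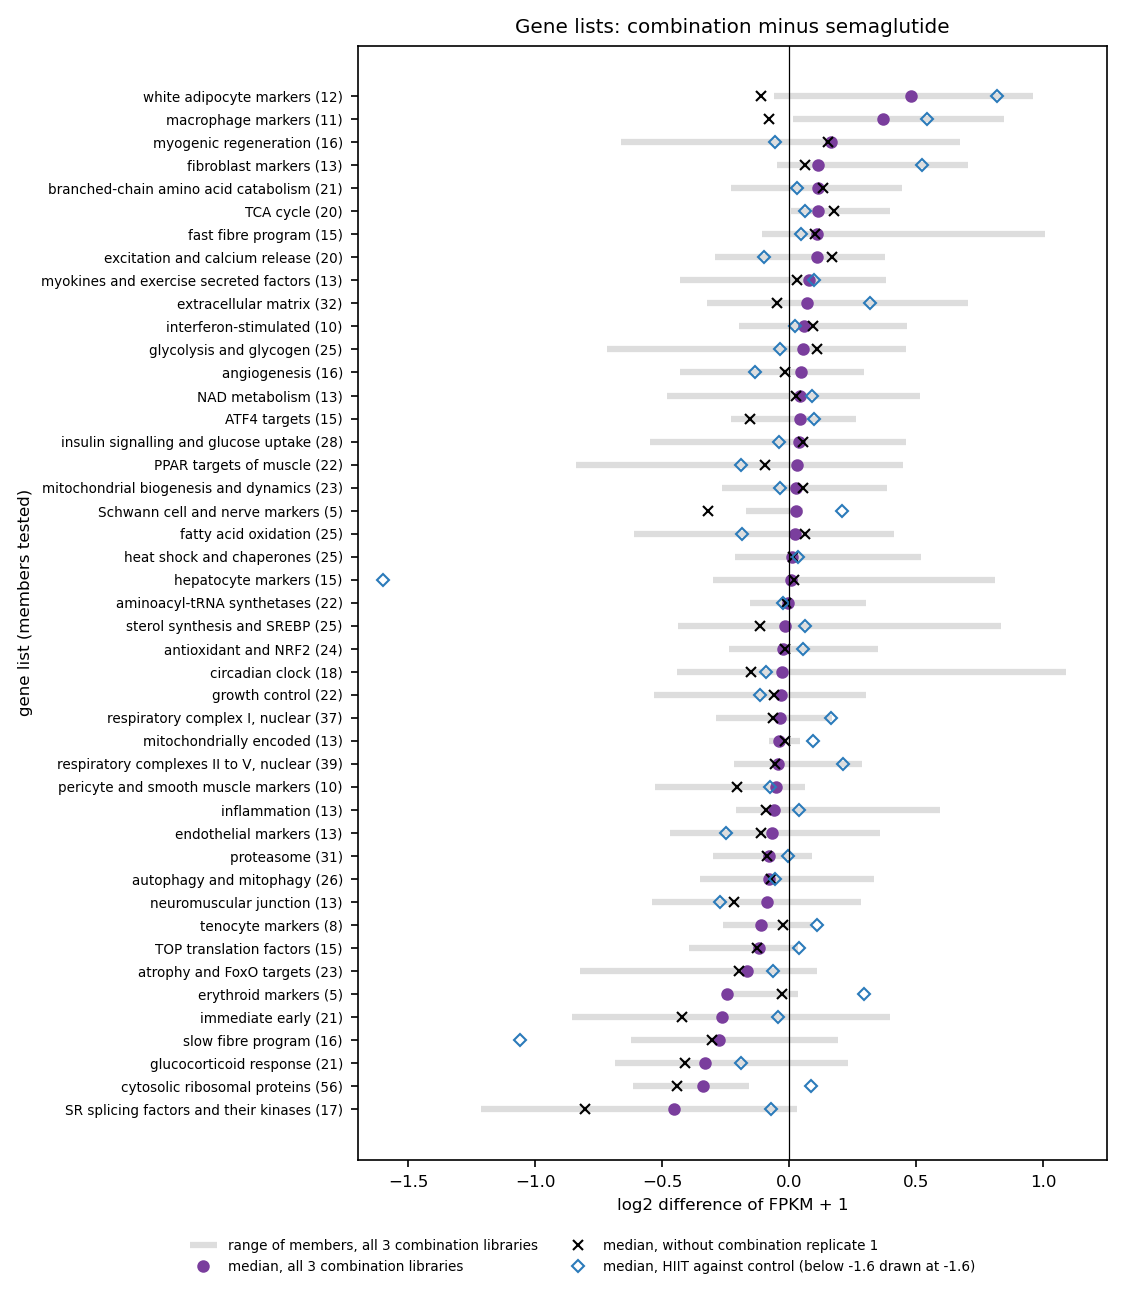
Median log2 difference, combination minus semaglutide, of each gene list with at least 5 tested members (number in parentheses); grey bars span the members, filled circles are medians with all libraries, crosses medians without combination replicate 1 and open diamonds medians of HIIT against control. Ribosomal protein genes lie at -0.34 and at 0.08 for HIIT against control, and white adipocyte and macrophage lists move from 0.48 and 0.37 to -0.11 and -0.08 without combination replicate 1.

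The same training contrast in mice without the drug, which shares no library with the one above, called 0 features by limma and had 952 at an unadjusted p under 0.05 (8.93%), 351 higher (3.29%) and 601 lower (5.63%). Hepatocyte markers were at a median of -2.45 for HIIT against control, with 11 of 15 lower at an unadjusted p under 0.05, and their part in these counts was not tested. Over all 10666 features, 55.9% had the same sign in both contrasts. Of the 190 features higher at an unadjusted p under 0.05 with semaglutide, 110 (57.9%) were above 0 without it. Among the 1102 lower features 694 (63.0%) were below 0 without it. The base for both shares is that 44.1% of all features were above 0 without the drug and the rest were not. Features share libraries and are not independent, so these shares are a description.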

How the data were processed

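The labels describe stranded poly(A) libraries of muscle RNA, read in pairs. GRCm39 and the tools STAR 2.7.9a, featureCounts 2.0.1, StringTie 2.1.4 and Trimmomatic 0.36 are named in the submitters' processing notes, without roles. The deposited table gives FPKM, computed by the authors, for 22390 features in 12 libraries. Of these 274 are MSTRG assemblies and 4877 are at 0 throughout. FPKM are not counts, so no count model was fitted. Depth (17.2 to 21.3 M fragments over the 12 libraries) was estimated from low FPKM values of 4431 GENCODE M21 genes that have a single transcript.

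Values were used as log2(FPKM + 1), which understates changes of weakly expressed genes. Features at 1 FPKM or more in at least 3 libraries entered a limma 3.58.1 fit (R 4.3.3; trended and robust, 1 mean per group, all 12 libraries). Two-sided p-values were adjusted by Benjamini-Hochberg over all 10666 features, with calls at 0.05. The code was tested on simulated data.

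Groups come from the treatment labels. Nothing states that replicates came from separate animals, so a p-value reflects only the spread among these libraries, which may be technical. Libraries with equal replicate numbers were not treated as pairs, and the correlations given under the processing limits show no pairing. Lists were described by counts and medians. The summed FPKM of a list was compared between groups by a two-sided exact permutation test over libraries, whose smallest p here is 0.1. It was run for every list, without adjustment for the number of lists. Members and lists were chosen with earlier results of these data known. Named genes were the 8 smallest p-values in each direction, the 2 smallest of each of 47 lists, a set of fixed muscle genes and the most abundant member of each marker list, 129 in all. Sequences are from RefSeq for GRCm38.p6, not the authors' build, and were matched by symbol. Alternatives were other pseudocounts, filters, scalings and fits, and each library left out.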

Additional observations from a re-analysis of the deposited data

How the results depend on the processing

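With all libraries 1 feature was called, 0 higher and 1 lower. The count was 0, with 0 lower, with a pseudocount of 0.1, with no filter on low FPKM, with a minimum of 5 FPKM in 3 libraries, with the same median in every library, with the 6 libraries alone and with replicate number as a block. It was 1 with a pseudocount of 0.5, TMM rescaling, a sum without mitochondrially encoded features or limma without trend. The filter at 5 removes the called feature itself, and the cause of the other losses was not tested. Leaving out each library in turn gave 0 to 557 calls, 0 to 41 higher and 0 to 516 lower, and all but the value without combination replicate 1 were 0 or 1. For the difference between the effect of HIIT with and without semaglutide the range was 0 to 24 calls, and for HIIT against control 0 to 1. Alternatives chosen after seeing the data gave 411 calls (122 higher, 289 lower, and 20 for the difference between both effects) with TMM and without combination replicate 1, and 881 (83 higher, 798 lower) with combination replicates 2 and 3 and semaglutide alone.

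Of the 129 named genes 0 were called in any of these settings that kept combination replicate 1. Without it 23 were called, where 5.22% of all features were. Many of the 129 were chosen by their p in the same libraries, so this count adds no evidence for them. Between 0 and 8 of the 129 changed sign, leaving aside the settings chosen after seeing the data. Deviations from the group means of combination and semaglutide libraries with equal numbers correlated at 0.01, 0.09 and -0.01. These values show no pairing by number, but 3 libraries per group cannot exclude one. The replicate block left 0 calls, with 173 higher and 1168 lower at an unadjusted p under 0.05 by limma. Values under an FPKM of 1 rest on few fragments, and 3 libraries per group limit the precision of each difference.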

Other observations

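Several genes outside the rule for named genes separated the groups and are given as values chosen after they were seen. Hdac4, a deacetylase that represses MEF2 in muscle, was at 5.65, 7.58 and 5.64 FPKM under semaglutide and at 2.94, 4.6 and 3.11 FPKM in the combination group, with controls at 3.46 to 4.21 FPKM. The log2 difference was -0.69 ± 0.15 (limma adjusted p = 0.28). The kinase gene Pim1 was at 9.47, 6.23 and 10.9 FPKM against 4.89, 2.45 and 1.93 FPKM, at -1.31 ± 0.28. Tgif1, a corepressor of TGF-beta signalling, was at 12.1, 6.91 and 7.31 FPKM under semaglutide and 5.47, 3.99 and 2.96 FPKM in the combination group, at -0.92 ± 0.20, with controls at 3.15 to 4.29 FPKM. In all 3 genes the semaglutide libraries were the highest of the study's groups. Usp2, a ubiquitin protease with clock-dependent expression, was at 32.2, 38.7 and 30.2 FPKM against 54.6, 45.4 and 48.7 FPKM, at 0.55 ± 0.15.

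The extracellular matrix list had 22 of 32 members above 0 at a median of 0.07, against -0.07 over all features. Without combination replicate 1, 14 of 32 were above 0 at -0.05, against -0.11 over all features. The sign of the list's median thus turned with 1 library, but it stayed above the median of all features. With all libraries 0 of the 32 members had an unadjusted p under 0.05 by limma. Without the drug 29 of the 32 were above 0 for HIIT against control at a median of 0.32, and 10 had an unadjusted p under 0.05 in the higher direction (3.29% of all features did). The type I collagen gene Col1a1 was at 3.12, 4.43 and 4.75 FPKM under semaglutide and 8.42, 6.19 and 7.19 FPKM in the combination group, against 3.9 to 10.9 FPKM in controls and 14.6 to 33.6 FPKM with HIIT only. Its difference between both effects was -0.63 ± 0.50 and did not pass.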
